A study of Mus musculus with 6 samples.

Results

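The keratins of simple epithelia and the junction proteins that anchor them were followed in mouse embryonic stem (ES) cells with and without Satb1. The set holds 10 of the 19938 genes measured, chosen by symbol from the probe annotation: the keratin genes Krt7, Krt8, Krt18, Krt19 and Krt20, and the junction genes Dsp, Pkp2, Jup, Epcam and Dsg2. Where a gene had several probe sets, the one brightest on average over the 6 arrays was to stand for it, but each of the 10 had 1 probe set, so that step left nothing out. The set was chosen with earlier results of these data known, so that its levels are given as a description. No gene of the set was dropped by a filter on dim values.

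There were 3 arrays of Satb1-/- cells, labelled clones 1-1, 1-2 and 2-1, and 3 arrays of WT cells, labelled 1 to 3. All 6 came from cells that carried a HygroTK selection marker in the Oct4 locus, were kept with LIF in serum medium, and grew for 3 days on irradiated feeder cells under hygromycin. Most feeders were removed by settling before RNA was taken. The labels say neither what the first clone number means nor whether each array had its own culture, so that the tests measure the spread between arrays, which may in part be technical. SATB1 binds DNA and shapes the folding of chromatin. The Satb1 probe set read 4.38, 4.47 and 4.57 in the Satb1-/- arrays, against 5.12, 4.99 and 5.31 in the WT arrays, and the position of its probes relative to the deletion is unknown here.

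Keratins form intermediate filaments from pairs of one type I and one type II protein. KRT8 (type II) and KRT18 (type I) are the first pair made in the mouse embryo and mark the trophectoderm, the outer layer of the blastocyst, and later simple epithelia, where KRT7, KRT19 and KRT20 join them. Desmosomes tie these filaments to the cell surface through desmoplakin (Dsp), plakophilin 2 (Pkp2), plakoglobin (Jup) and cadherins such as desmoglein 2 (Dsg2), while EPCAM is a surface glycoprotein of epithelia and ES cells.

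Values are log2 expression after robust multi-array averaging (RMA), so that 1 unit is a doubling of signal. Differences are Satb1-/- minus WT with the moderated standard error (SE) of limma, and the threshold for a change was an adjusted p under 0.05 (Benjamini-Hochberg, 19938 genes). Beside each list with 0 genes past the threshold, the number at an unadjusted limma p under 0.05 is given; over all genes it was 2089. Levels of different probe sets are not set against each other. WT replicate 3 stood apart from the other arrays in several of the genes below. The differences of Krt7, Krt8, Krt18, Krt19, Krt20, Krt42, Klf4 and the marker Plac1 are also given without it.

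The promoters of 4 keratin genes on which the results turn are shown: the neighbours Krt8 and Krt18, Krt7 of the same cluster, and Krt42, a keratin gene outside the set that differed in the other direction. They are RefSeq promoters of build GRCm38.p6, with 250 bases before and 50 after the annotated start, 5′ to 3′ on the gene's strand. Krt8 lies at chr15:102004293-102004592 on the minus strand, Krt18 at chr15:102027966-102028265 on the plus strand, Krt7 at chr15:101412153-101412452 on the plus strand and Krt42 at chr11:100269902-100270201 on the minus strand. Capitals mark TATAAA, the letters of a TATA box, and AGGTCA, the core letters that nuclear receptors bind, on either strand.
Krt8: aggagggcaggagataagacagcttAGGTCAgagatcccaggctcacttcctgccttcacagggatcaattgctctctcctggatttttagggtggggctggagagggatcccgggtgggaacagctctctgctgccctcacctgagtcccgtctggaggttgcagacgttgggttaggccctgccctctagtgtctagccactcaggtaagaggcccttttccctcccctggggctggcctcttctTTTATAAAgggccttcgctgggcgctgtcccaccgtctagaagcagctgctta
Krt18: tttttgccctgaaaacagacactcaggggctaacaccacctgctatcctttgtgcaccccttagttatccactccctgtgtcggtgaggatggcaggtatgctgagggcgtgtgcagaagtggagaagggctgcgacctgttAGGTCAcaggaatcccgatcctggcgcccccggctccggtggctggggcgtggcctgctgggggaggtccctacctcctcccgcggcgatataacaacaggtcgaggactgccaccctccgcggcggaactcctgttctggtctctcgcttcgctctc
Krt7: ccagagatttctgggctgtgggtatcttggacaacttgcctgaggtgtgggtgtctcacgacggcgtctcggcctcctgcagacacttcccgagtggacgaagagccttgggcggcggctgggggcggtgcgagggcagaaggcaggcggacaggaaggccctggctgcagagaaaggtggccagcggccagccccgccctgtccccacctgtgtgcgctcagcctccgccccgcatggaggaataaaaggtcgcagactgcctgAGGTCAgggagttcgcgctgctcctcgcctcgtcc
Krt42: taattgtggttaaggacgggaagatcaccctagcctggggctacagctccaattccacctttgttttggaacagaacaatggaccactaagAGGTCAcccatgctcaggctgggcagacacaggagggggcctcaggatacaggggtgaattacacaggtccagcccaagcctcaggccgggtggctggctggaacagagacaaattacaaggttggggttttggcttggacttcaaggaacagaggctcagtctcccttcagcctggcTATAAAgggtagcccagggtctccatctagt

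In total 5 motifs were searched on both strands in the 8 promoters that the table holds for the set and Krt42 (those of Krt7, Krt8, Krt18, Krt20, Dsp, Jup, Epcam and Krt42). AGGTCA, which was chosen after the sequences had been read, was found in 5 of the 8, those of Krt7, Krt8, Krt18, Krt20 and Krt42. It was found in 16.3% of all 32851 promoters and in 10 of 37 keratin promoters (27.0%), which include these 5. Because of that choice, nothing is read from the comparison. TATAAA was found in Krt8, Krt20 and Krt42, against 13.6% of all promoters, and overlapped its reverse complement in Krt8. Relative to the annotated start, the forward match began at -1 in Krt8, at -29 in Krt20 and at 19 in Krt42. In Krt8 and Krt42 it thus lay at or after that start. GGGCGG, the GC box of Sp1-type factors, was found in Krt7, Dsp, Jup and Epcam, against 35.7%. GGAATG, the letters of TEAD factors, was found in Krt20, against 14.7%, and TGANTCA, those of AP-1, in none of the 8, against 7.81% of all promoters. These are matches of letters in these windows and not sites shown to be bound.

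Krt8 and Krt18 were both far lower in Satb1-/- cells. Krt8 read 6.20, 6.97 and 6.36 in the Satb1-/- arrays 1-1, 1-2 and 2-1, against 8.80, 8.80 and 10.09 in the WT arrays 1, 2 and 3. All Satb1-/- values lay below all WT values, and the highest WT value was that of replicate 3. The difference was -2.72 (SE 0.32, 95% interval -3.43 to -2.01), a 6.59-fold lower signal, and -2.29 without WT replicate 3.

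Krt18 read 6.09, 6.20 and 6.13 in Satb1-/- cells, against 7.98, 8.23 and 9.66 in WT cells. The Satb1-/- arrays lay within 0.11 of each other, while the WT arrays spanned 1.68, with replicate 3 again on top. The difference was -2.48 (SE 0.34, 95% interval -3.24 to -1.73), 5.59-fold, and -1.97 without WT replicate 3. As the RNA comes from whole cultures, fewer cells that make these keratins and less keratin RNA per cell cannot be told apart.

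Krt19, a type I keratin that lacks the tail domain of its relatives, read 6.11, 6.78 and 6.53 in Satb1-/- cells, against 7.82, 8.15 and 8.67 in WT cells. The groups did not overlap, and the difference was -1.74 (SE 0.22, 95% interval -2.22 to -1.25), 3.34-fold, or -1.51 without WT replicate 3. The decreases of Krt8, Krt18 and Krt19 were known when the set was drawn up, and their values are given as a description.

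Krt7, a type II keratin of ducts and simple epithelia, read 5.09, 5.29 and 5.35 in Satb1-/- cells, against 6.04, 6.50 and 7.89 in WT cells. The groups did not overlap, but WT replicate 3 lay 1.62 above the mean of the other WT arrays. The difference was -1.57 (SE 0.36, 95% interval -2.38 to -0.77) and missed the threshold with all arrays (limma adjusted p = 0.0716). Without WT replicate 3 it was smaller, -1.03, and passed (limma adjusted p = 0.00412), and it also passed without WT replicate 1 (-1.96, limma adjusted p = 0.0417).

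Krt20, a type I keratin of gut epithelium and urothelium, read 3.48, 3.32 and 3.32 in Satb1-/- cells, against 3.79, 3.95 and 3.33 in WT cells. The groups overlapped through WT replicate 3, which here was the lowest WT array, and all values lay below the array medians (4.69 to 4.85), where background compresses differences. The difference was -0.32 (SE 0.15, 95% interval -0.66 to 0.03, limma adjusted p = 0.537). Its size depended on single WT arrays: it was -0.49 without WT replicate 3 (limma adjusted p = 0.0557) and -0.18 without WT replicate 2 (limma adjusted p = 0.779).

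**Figure D1:**
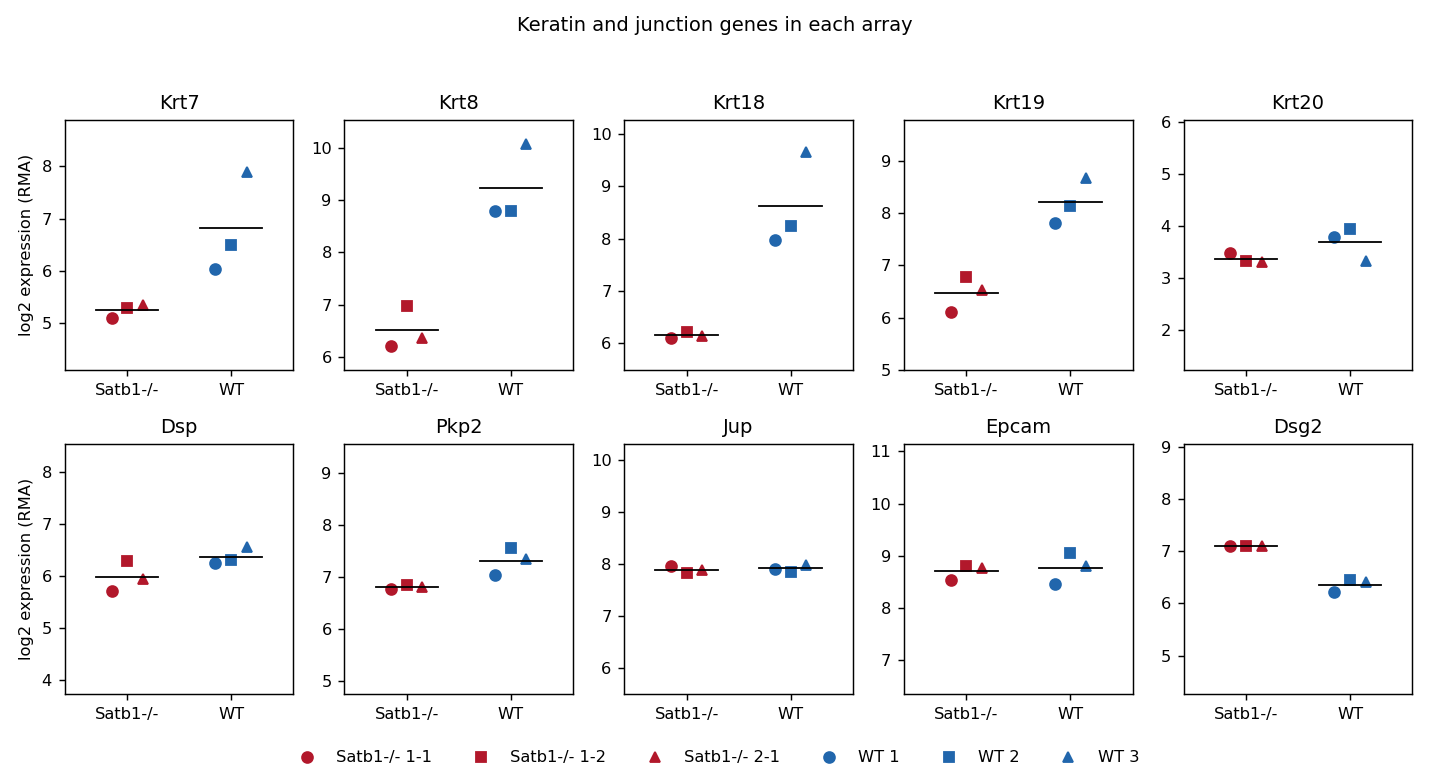
Log2 expression (RMA) of the 10 genes in each array, Satb1-/- on the left and WT on the right, with the mean of each group as a line. Each panel spans the same number of log2 units. Krt7, Krt8, Krt18 and Krt19 are lower in every Satb1-/- array, with WT 3 highest, and Dsg2 is higher in every Satb1-/- array.

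The desmosomal genes did not move as one. Dsg2, which encodes a cadherin of desmosomes, rose: it read 7.11, 7.10 and 7.11 in Satb1-/- cells, against 6.22, 6.45 and 6.41 in WT cells. All Satb1-/- values lay above all WT values and within 0.013 of each other. The difference was 0.74 (SE 0.11, 95% interval 0.51 to 0.98), 1.67-fold (limma adjusted p = 0.00651, higher in 3 of 3 Satb1-/- arrays). The size hardly depended on single arrays (0.67 to 0.79), but the threshold was narrowly missed without Satb1-/- replicate 1-2 (0.75, limma adjusted p = 0.0502) or 2-1 (0.74, limma adjusted p = 0.0560).

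Pkp2, which links desmosomal cadherins to desmoplakin, read 6.77, 6.85 and 6.82 in Satb1-/- cells, against 7.04, 7.55 and 7.35 in WT cells. The groups did not overlap, yet the difference of -0.50 (SE 0.13, 95% interval -0.80 to -0.20) missed the threshold (limma adjusted p = 0.128); without WT replicate 1 it was -0.64 and passed (limma adjusted p = 0.0414). Dsp, which binds the keratin filaments themselves, read 5.73, 6.29 and 5.96 in Satb1-/- cells, against 6.26, 6.32 and 6.56 in WT cells. These groups overlapped, and the difference was -0.39 (SE 0.15, 95% interval -0.72 to -0.05, limma adjusted p = 0.367). It ran from -0.54 without Satb1-/- replicate 1-2 to -0.26 without Satb1-/- replicate 1-1 (limma adjusted p = 0.232 and 0.829).

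Jup and Epcam had the smallest differences of the set. Jup, which encodes the plakoglobin shared by desmosomes and adherens junctions, read 7.96, 7.83 and 7.88 in Satb1-/- cells, against 7.91, 7.85 and 7.98 in WT cells (difference -0.02, 95% interval -0.25 to 0.20, limma adjusted p = 0.980). Epcam read 8.54, 8.79 and 8.77 in Satb1-/- cells, against 8.45, 9.05 and 8.80 in WT cells (difference -0.07, 95% interval -0.41 to 0.27, limma adjusted p = 0.955). Both pairs of groups overlapped, and the intervals hold changes of either sign; the sign of the Jup difference turned when each array was centred on its median (0.0051).

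By count, 3 of the 10 genes were lower (Krt8, Krt18 and Krt19) and 1 was higher (Dsg2) at the threshold. Over all genes tested, 0.476% were lower and 0.923% higher, 1.4% in all. Nothing is read from the count of lower genes, nor from the counts and the median that follow. The decreases of Krt8, Krt18 and Krt19 were known when the set was drawn up, and these genes weigh on those figures. The Satb1-/- and WT values did not overlap in 6 of the 10, against 15.1% of all genes. In 5 of these the Satb1-/- arrays lay below, against 6.97% of all genes, and in 1 above, against 8.18%. The median difference of the 10 was -0.44, and that of all genes was -0.0044.

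Within WT, replicate 3 exceeded the mean of replicates 1 and 2 by 1.62 for Krt7, 1.55 for Krt18, 1.29 for Krt8 and 0.69 for Krt19. An excess of at least 1 was found for 63 of all genes (0.316%). For the junction genes the excess ran from 0.05 (Pkp2 and Epcam) to 0.27 (Dsp), and for Krt20 the value was -0.54. Of 13 measured trophectoderm markers, 9 were higher and 4 lower in replicate 3 than in the mean of the other WT arrays (-0.17 to 1.54, median 0.20), and 6 were highest in it of all 6 arrays. The upper end was Plac1, a gene of the placenta, which read 3.78, 3.68 and 3.77 in Satb1-/- cells, against 4.14, 4.48 and 5.85 in WT cells (difference -1.08, limma adjusted p = 0.210). Without WT replicate 3 its difference was smaller, -0.57, and passed the threshold (limma adjusted p = 0.0433). All Plac1 values in the remaining arrays lay below the array medians (4.69 to 4.85), where background compresses differences.

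Marker lists of other cell types were read beside the keratins. The mean level of the 13 measured trophectoderm genes was 4.96, 5.01 and 4.96 in Satb1-/- arrays, against 4.95, 4.94 and 5.28 in WT arrays, and 0 of the 13 passed the threshold (limma, 6 unadjusted). The Satb1-/- arrays lay below all WT arrays for 2 of the 13 (Plac1 and Bmp8b), against 6.97% of all genes. They lay above all WT arrays for 3 (Eomes, Tead4 and Tfap2c), against 8.18% of all genes, and overlapped them for 8. Of its defining regulators, Cdx2 read 4.29 to 4.48 in Satb1-/- cells and 4.42 to 4.84 in WT cells, near the array medians, and Elf5 read 3.95 to 4.19 in Satb1-/- cells and 3.88 to 4.07 in WT cells. Eomes was not low with the keratins, at 5.12 to 5.55 in Satb1-/- cells and 4.73 to 4.79 in WT cells (difference 0.55, limma adjusted p = 0.0680). Tead4 (0.43, limma adjusted p = 0.111) and Tfap2c (0.33, limma adjusted p = 0.246) were likewise not low in Satb1-/- cells, nor raised in WT replicate 3. Ascl2 (-0.48, limma adjusted p = 0.425), Hand1 (-0.31, limma adjusted p = 0.628) and Cdx2 (-0.23, limma adjusted p = 0.622) were highest in WT replicate 3. Without that array they differed by -0.23, -0.12 and -0.11. Of the 13 differences with all arrays, 6 were negative. Gata3 read 4.58 to 5.09 in Satb1-/- cells and 4.53 to 5.53 in WT cells, highest in WT replicate 3, and its difference of -0.16 was 0.12 without that array. The 20 measured feeder fibroblast genes averaged 7.08 to 7.31 in Satb1-/- cells and 6.89 to 7.17 in WT cells, lowest in WT replicate 3. Of these, 0 passed the threshold (limma, 4 unadjusted), and 5 of the 20 differences were negative (median 0.13). The Satb1-/- arrays lay above all WT arrays for 2 of the 20 (8.18% of all genes) and below them for 0 (6.97% of all genes). WT replicate 3 minus the mean of the other WT arrays ran from -1.05 (Dcn) to 0.26 (Vim). The 18 extraembryonic endoderm genes averaged 5.42 to 5.51 in Satb1-/- cells and 5.30 to 5.45 in WT cells. At the threshold 2 were higher, Lama1 (1.53) and Sparc (0.63), and 0 lower. Sparc did not pass when any single array except WT replicate 3 was left out (0.55 to 0.66). Of the 18 differences 11 were negative (median -0.02). The Satb1-/- arrays lay below all WT arrays for 2 of the 18, Col4a1 (-0.43, limma adjusted p = 0.195) and Col4a2 (-0.18, limma adjusted p = 0.650), against 6.97% of all genes. They lay above all WT arrays for 3 of the 18, against 8.18% of all genes. The 12 ES cell genes averaged 9.35 to 9.39 in Satb1-/- cells and 9.13 to 9.37 in WT cells. At the threshold 2 were higher, Nanog (1.09) and Esrrb (0.56), and 0 lower. Esrrb missed it without WT replicate 1 or any one Satb1-/- array (0.48 to 0.57). The list was split. The Satb1-/- arrays lay above all WT arrays for 3 of the 12 (8.18% of all genes). They lay below for 4 (6.97% of all genes), Pou5f1 (-0.39), Dppa4 (-0.39), Lin28a (-0.34) and Tdgf1 (-0.06). The part of these cell types in the keratin differences was not tested. RMA values have no zero, so no marker can be called absent.

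Other keratins were then read as a family. Of 52 keratin genes measured, 3 fell (Krt8, Krt18 and Krt19) and 1 rose, Krt42, a type I keratin gene. Over all genes tested, 0.476% were lower and 0.923% higher, and the 3 decreases were known when the set was drawn up. Krt42 read 7.92, 7.96 and 7.85 in Satb1-/- cells, against 6.82, 6.68 and 7.24 in WT cells. The groups did not overlap, and the difference was 1.00 (SE 0.14, limma adjusted p = 0.00657), or 1.16 without WT replicate 3. It missed the threshold without Satb1-/- replicate 1-2 (0.97, limma adjusted p = 0.0533). The other 46 keratin genes outside the set had differences from -0.38 (Krt90) to 0.24 (Krt35), with a median of -0.09, and 0 passed the threshold (limma, 4 unadjusted).

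The genes that differed lie among keratins that did not pass the threshold. By the gene order of RefSeq GRCm38.p6, Krt8 and Krt18 are next to each other at one end of the type II keratin cluster of chromosome 15, and Krt18 is the type I gene that sits there. The 5 measured genes on each side of the pair had differences from -0.48 to 0.16 (median -0.08), with 0 of 10 past the threshold (limma, 2 unadjusted). On the side of Krt8 these were the keratins Krt78 (-0.12), Krt79 (-0.18), Krt4 (0.14), Krt76 (0.16) and Krt77 (-0.22). On the side of Krt18 they were Eif4b, a translation initiation factor gene (-0.27), Tns2, which encodes a focal adhesion protein (-0.48, limma adjusted p = 0.241), Spryd3 (-0.02), Igfbp6 (0.05) and Csad (-0.04). Krt7 lies towards the other end of the cluster, with 23 measured genes between it and Krt8, 21 of them keratins. These ran from -0.38 to 0.16, with 0 past the threshold (limma, 1 unadjusted).

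Krt19, Krt20, Krt42 and Jup share the type I cluster of chromosome 11 and its flank. Between Krt19 and Jup lie 7 measured genes, of which Krt42 alone passed the threshold. The neighbours of Krt19 were Krt32 (-0.00), Krt35 (0.24), Krt36 (-0.11), Krt13 (-0.08) and Krt15 (-0.14) on one side, and Krt9 (-0.16), Krt14 (-0.25), Krt16 (-0.09), Krt17 (0.05) and Krt42 (1.00) on the other. The keratin with the lower level in Satb1-/- cells and the keratin with the higher one were thus 5 genes apart.

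**Figure D2:**
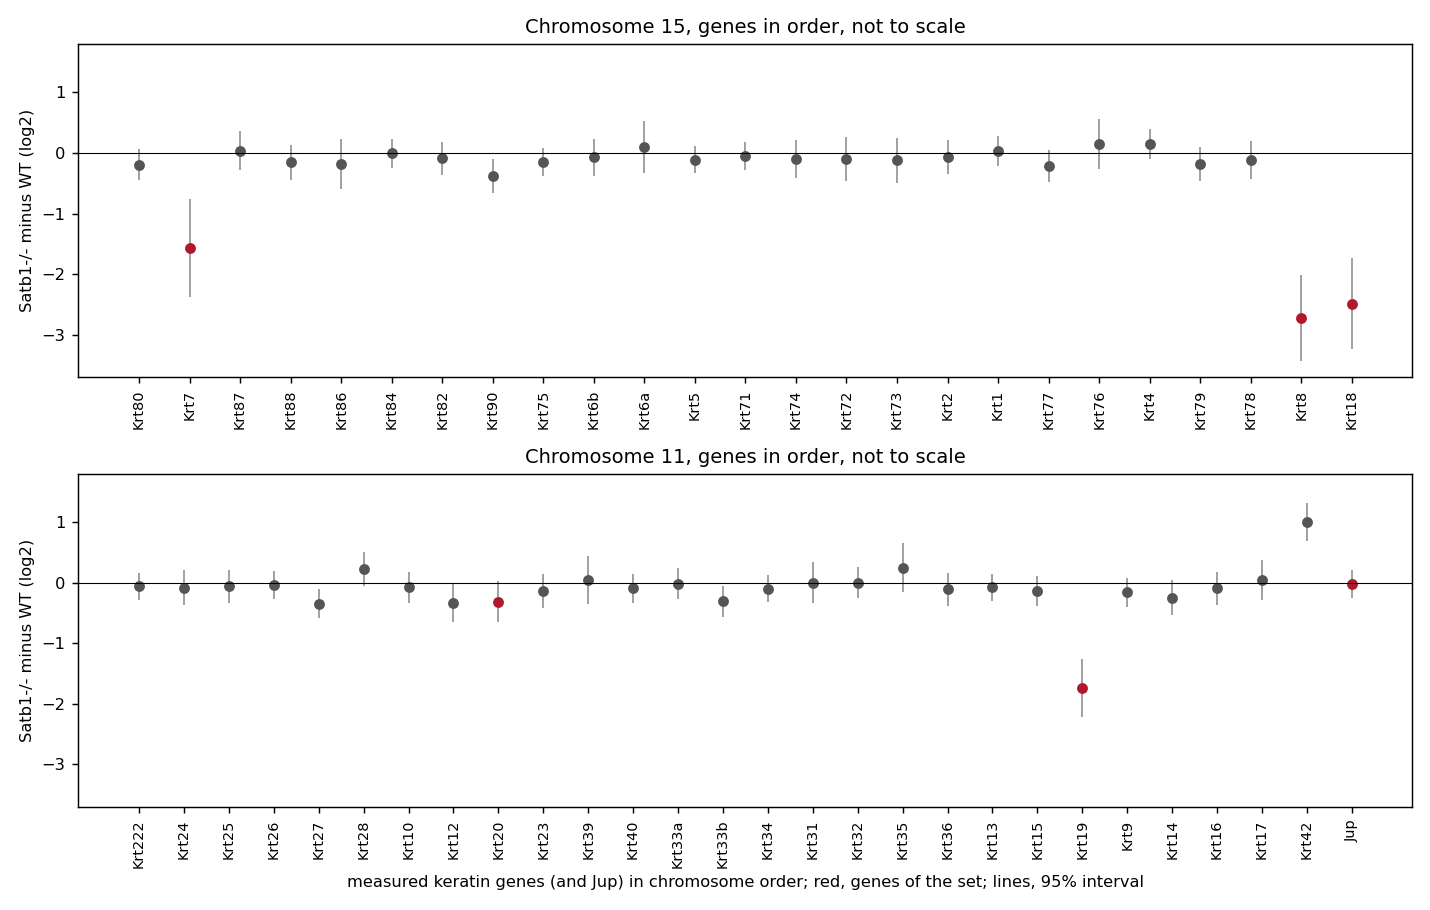
Difference (Satb1-/- minus WT, log2) of each measured keratin gene and Jup in chromosome order, with 95% intervals as lines and the genes of the set in red. Krt7, Krt8 and Krt18 on chromosome 15 and Krt19 on chromosome 11 stand far below 0, Krt42 stands at 1.00, and the other 46 keratin genes outside the set lie between -0.38 and 0.24.

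Other junction and epithelial genes gave few calls. In the desmosome list Dsg2 was the 1 higher and 0 were lower of 16 measured genes (median -0.06). Of 8 plakin and hemidesmosome genes 0 passed (limma, 1 unadjusted; median 0.09), with values of 0.25 for Dst, 0.24 for Macf1 (0.16 without WT replicate 3), both large linker proteins of the cytoskeleton, and -0.24 for the integrin gene Itgb4. Of 28 tight junction genes 0 passed (limma, 3 unadjusted; median 0.03). The largest differences there with all arrays were -0.41 for the claudin gene Cldn7, -0.36 for Lsr, which acts at tricellular contacts, and -0.34 for the polarity gene Pard3 (limma adjusted p = 0.625, 0.350 and 0.168). That of Cldn7 was -0.14 without WT replicate 2, smaller than those of Lsr (-0.26 to -0.48) and Pard3 (-0.31 to -0.37) without any one array. Of 9 gap junction genes 0 passed (limma, 3 unadjusted; median -0.07). The connexin gene Gja1 came nearest, at 8.68, 8.52 and 8.56 in Satb1-/- cells, against 9.08, 9.06 and 8.99 in WT cells (-0.46, limma adjusted p = 0.0610); Gjb2 differed by -0.40 and Gjb5 by 0.37.

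In the epithelial identity list, 1 of 25 measured genes was higher and 0 were lower (median -0.03). Rbm47, which encodes an RNA-binding protein of epithelial cells, read 7.42, 7.64 and 7.65 in Satb1-/- cells, against 6.54, 7.01 and 6.90 in WT cells (0.75, SE 0.14, limma adjusted p = 0.0271). It missed the threshold without WT replicate 1 (0.61) or without any one Satb1-/- array (0.71 to 0.83). The epithelial transcription factor genes Grhl3 (0.60) and Elf3 (0.51) came next and did not pass (limma adjusted p = 0.190 and 0.181); without WT replicate 1 they were 0.40 and 0.34. Of 9 genes of the mesenchymal transition 0 passed (limma, 0 unadjusted; median 0.20), with 0.32 for Fn1, 0.25 for Twist2 and 0.24 for Snai2. These sizes depended on single arrays: Fn1 was 0.15 without WT replicate 3, and Twist2 was 0.11 and Snai2 0.16 without Satb1-/- replicate 1-1.

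Among 23 measured transcription factor genes listed as possible regulators of simple epithelial keratins, 2 were higher and 1 was lower (median -0.11). Klf5, a Krüppel-like factor of trophectoderm and ES cells, read 8.75, 8.87 and 8.88 in Satb1-/- cells, against 8.27, 8.25 and 8.19 in WT cells (0.60, limma adjusted p = 0.0166). Klf4 read 7.63, 7.97 and 7.80 in Satb1-/- cells, against 6.65, 6.47 and 7.36 in WT cells (0.97, limma adjusted p = 0.0483). Without WT replicate 3 its difference was 1.24 (limma adjusted p = 0.000556). Gata2, which acts in trophoblast and blood, read 4.90, 5.17 and 4.99 in Satb1-/- cells, against 5.73, 5.47 and 5.86 in WT cells (-0.67, limma adjusted p = 0.0351). These 3 calls depended on single arrays. Klf5 missed the threshold without any one Satb1-/- array (0.57 to 0.64), Gata2 without WT replicate 1 or any one Satb1-/- array (-0.75 to -0.61), and Klf4 without any one array but WT replicate 3 (0.80 to 1.05).

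**Figure D3:**
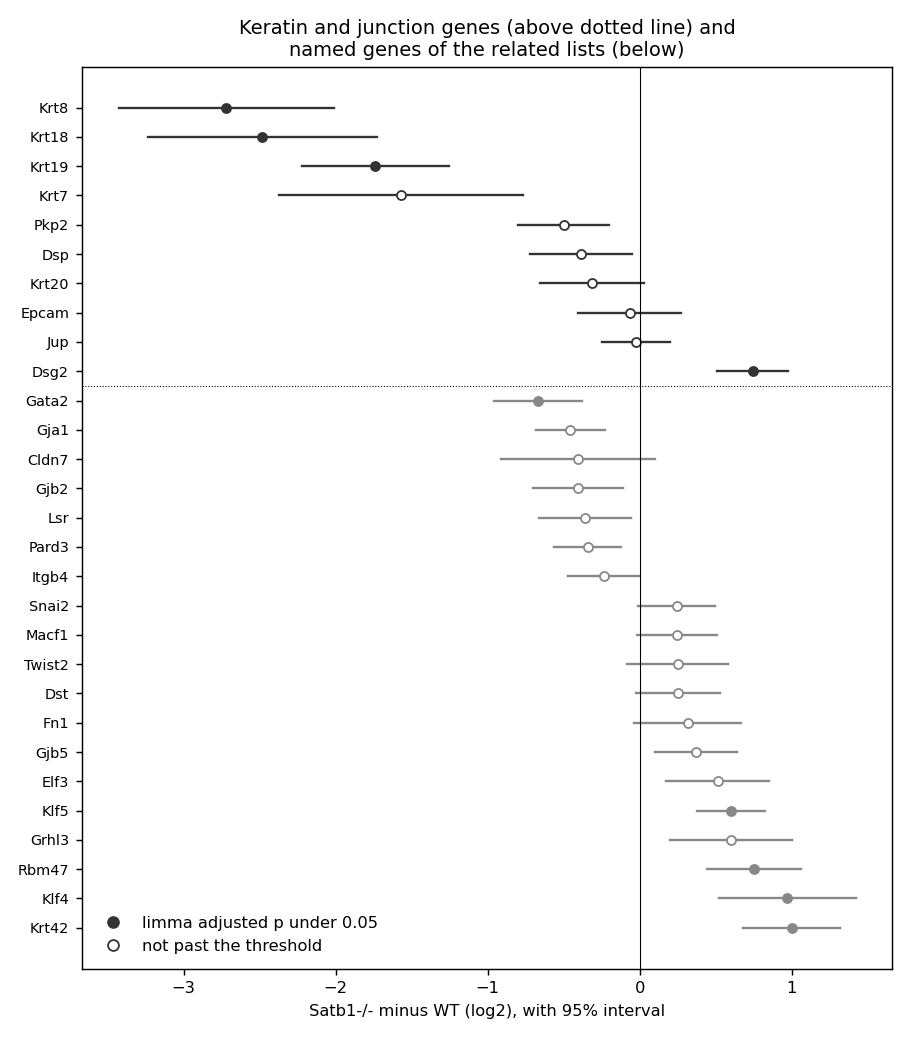
Difference (Satb1-/- minus WT, log2) with 95% interval of the 10 genes of the set, above the dotted line, and of the named genes of the related lists, below it. Filled points passed a limma adjusted p under 0.05. The 4 keratin genes Krt8, Krt18, Krt19 and Krt7 have the lowest values and Krt42 the highest.

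Genes outside the set were ranked by how closely they followed the mean of Krt8 and Krt18 over the 6 arrays, among the 215 genes whose SD over the arrays was at least 0.5. The highest Pearson correlations over 6 arrays were those of Peg10 (0.999), Car2 (0.985), Peg3 (0.967), Resf1 (0.962), Uba1y (0.955) and Uty (0.951). These values describe the arrays, which fall into the groups compared, so that a gene that is lower in all Satb1-/- arrays tends to score high. Peg10, an imprinted gene derived from a retrotransposon, read 9.51, 9.71 and 9.59 in Satb1-/- cells, against 10.56, 10.74 and 11.40 in WT cells, with replicate 3 on top as for Krt8. Car2, a carbonic anhydrase gene, read 4.31, 4.32 and 4.26 in Satb1-/- cells, against 4.90, 5.20 and 5.53 in WT cells. Uba1y and Uty lie on chromosome Y, and Y-linked genes differed between the groups: of 9 measured, 5 were lower in Satb1-/- cells (Eif2s3y -2.26, Zfy1 -1.65, Uty -1.64, Uba1y -1.40 and Kdm5d -1.25), each also without any one array (limma, adjusted p under 0.05). The other 4 did not pass (-1.36 to -0.09), and over all genes tested 0.476% were lower. Uty read 4.90, 4.58 and 4.85 in Satb1-/- cells, against 6.15, 6.47 and 6.63 in WT cells. This difference between the cells of the groups separates the same arrays as the keratin difference, and its part in it was not tested. Within WT, the excess of the 5 lower Y-linked genes in replicate 3 ran from 0.07 (Eif2s3y) to 0.32 (Uty). Uty and Uba1y were highest in WT replicate 3, and Eif2s3y, Kdm5d and Zfy1 in WT replicate 2. In WT replicates 1, 2 and 3, Eif2s3y read 7.46, 8.05 and 7.82, and Uba1y read 5.14, 5.68 and 5.70. Within the set, the correlation with that mean was 0.984 for Krt19, 0.958 for Krt7, 0.845 for Dsp, 0.840 for Pkp2, 0.349 for Jup, 0.337 for Krt20, 0.245 for Epcam and -0.891 for Dsg2.

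**Figure D4:**
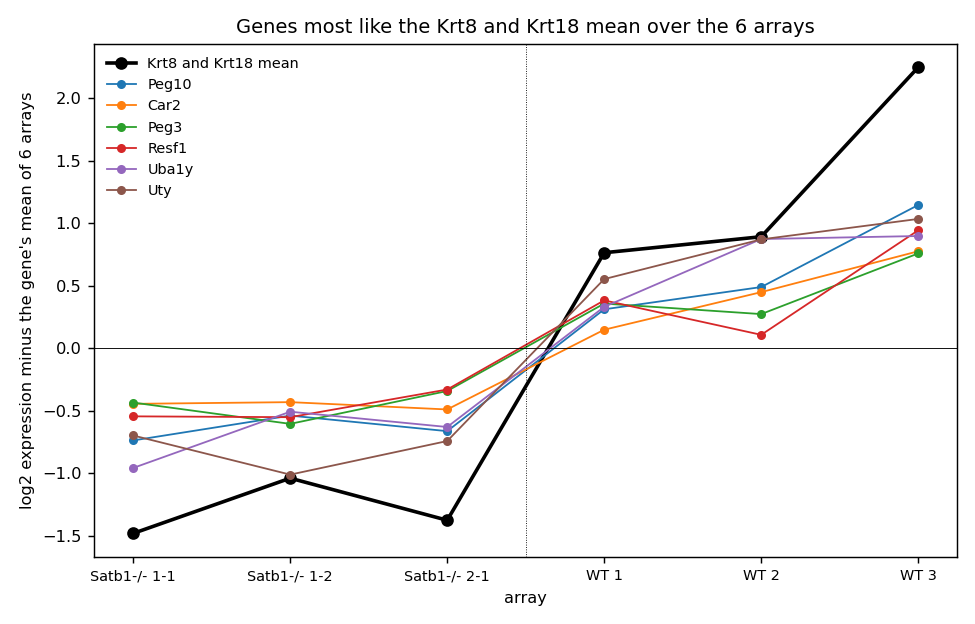
Log2 expression minus each gene's own mean of the 6 arrays, for the mean of Krt8 and Krt18 (thick line) and the 6 genes outside the set most like it, by array. All lines lie below 0 in the Satb1-/- arrays and above 0 in the WT arrays, and the black line is highest in WT 3.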

How the data were processed

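RNA of 6 samples was hybridised to 1-colour arrays, 3 of Satb1-/- and 3 of WT ES cells, grouped by their titles. The deposited values are log2 expression values for 35557 probe sets, made by the authors with RMA, per the submitters' processing notes. The RMA version and settings and the genome build were not given in the sources used here. Genes were named from the platform annotation, using the 21789 probe sets with exactly 1 symbol, which gave 19938 genes. The number of arrays limits the precision. Satb1-/- and WT were compared with limma 3.58.1 in R 4.3.3 (lmFit, then eBayes, without covariates or a filter), with Benjamini-Hochberg adjustment over all genes; the steps were tested on simulated data. The set and the 8 gene lists were chosen with earlier results of these data known. Named were the set, Satb1, genes of the lists past the threshold or, in lists with fewer than 3 of these, the largest differences up to 3, 5 neighbours on each side of Krt8-Krt18 and of Krt19, and the 6 genes most like Krt8 and Krt18. Other genes, such as markers, were named after their values were seen. Array replicate names do not pair the groups.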

Additional observations from a re-analysis of the deposited data

How the results depend on the processing

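Alternatives were another normalization or centring, a filter on dim genes, other uses of probe sets, array weights, clones 1-1 and 1-2 averaged, and leaving out each array. Krt8, Krt18, Krt19 and Krt7 were lower in Satb1-/- cells, and Dsg2 and Krt42 higher, under each of the 13 alternatives. Dsg2 passed the threshold in 11 of them (0.67 to 0.79), Krt42 in 11 (0.88 to 1.16), Krt7 in 4 (-1.96 to -1.03) and Pkp2 in 3 (-0.64 to -0.38). With array weights, 5 genes of the set were lower in place of 3, and 9 genes of the 8 lists in place of 4. The weights were lowest for WT replicates 3 (0.45) and 1 (0.46), and ran from 1.08 to 1.99 for the other arrays. Leaving out 1 array gave 3 to 5 lower and 0 to 1 higher genes of the set. A difference of at least 1 with groups that do not overlap gave 0 higher genes of the set. In the 8 lists, 5 genes were higher, against 1 with clones 1-1 and 1-2 averaged and 0 to 5 without 1 array. The sign turned for Jup when arrays were centred (0.0051), with array weights (0.011) and among the fits without 1 array (-0.057 to 0.012), and for Epcam among the fits without 1 array (-0.23 to 0.074). The cause was not tested.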
